A study of Homo sapiens with 36 samples.

Results

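The 5 NADPH supply enzymes PGD, TKT, TALDO1, ME1 and IDH1 were followed in HepG2 cells given the omega-3 fatty acid docosahexaenoic acid (DHA), the gut bacterial product propionate (PRO), the phenolic compound protocatechuic acid (PCA) or a combination. They were taken by their symbols from the 18932 genes of the count table, and each symbol was found in 1 row. NADPH is the reducing agent that fatty acid synthesis consumes, and glutathione and thioredoxin reductases use it against oxidants. Liver cells make it in the cytosol in the oxidative branch of the pentose phosphate pathway, by NADP+-dependent isocitrate dehydrogenase and by malic enzyme. Genes of this group are known both as targets of NRF2, the transcription factor of the antioxidant response, and as companions of lipogenic genes under SREBP, and the question was how they moved with treatments under which those 2 groups of genes could be followed as well.

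HepG2 is a human hepatoma line. Cells were cultured with 50 µM DHA, 70 µM PRO, 20 µM PCA, DHA + PRO or DHA + PCA, or with vehicle and albumin (Ctrl), for 6 or 24 h, and mRNA enriched from total RNA was sequenced from 3 replicates of each of the 12 groups. All groups, Ctrl included, were held in serum-free medium during the treatment, so that time with an agent and time without serum cannot be told apart between 6 and 24 h. A replicate was RNA pooled from 3 replicates of 1 culture experiment, and whether replicate number 1 of different groups came from the same culture was not stated.

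The 36 libraries held 4659744 to 42326734 counted reads. Replicate 2 of DHA + PRO at 24 h was the deepest, and the other 24 h libraries held 5617341 to 8657882. The cell type label was checked: the 8 hepatocyte markers summed to 50116 to 66866 CPM (counts scaled to a common library size) over the libraries and 0 of 8 were under 1 CPM throughout, whereas the 8 markers of other cell types summed to 62.2 to 111 CPM and 4 of 8 stayed under 1 CPM in every library. CPM used TMM factors over all 36 libraries.

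The DNA before the start of each gene is shown because the members are described as genes under NRF2 and SREBP. The 5 members matched 6 RefSeq windows of 300 bases (GRCh38.p14), from 250 bases before to 50 after a start site, IDH1 having 2. Letters searched on both strands were TGACNNNGC, the core of the antioxidant response element that NRF2 binds, TCACNCCAC, the sterol response element of SREBP, and CACGTG, the E-box. The antioxidant core was found in windows of 3 of the 5 members (PGD, ME1 and IDH1) and of neither TKT nor TALDO1, and 13.3% of all 35116 windows of that length held it. The sterol element and the E-box were found in 0 of 5 members, against 1.13% and 7.26% of all windows. A member was counted if any of its windows held the letters, whereas the shares are of single windows, so the units differ. Starts in the count table lay 32 to 168 bases before those of the windows below, so for PGD, TKT, TALDO1 and IDH1 only bases before the deposited start are printed. For ME1 the 29 bases around the match are printed, which lie after its deposited start and before its RefSeq start. All are written 5′ to 3′ on the strand of the gene, with matches in capitals.
PGD, chr1:10398814-10398991, plus strand: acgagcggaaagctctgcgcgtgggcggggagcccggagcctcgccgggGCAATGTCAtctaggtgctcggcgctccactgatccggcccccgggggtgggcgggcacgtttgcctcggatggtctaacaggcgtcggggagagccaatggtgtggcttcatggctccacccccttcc
TKT, chr3:53256115-53256272, minus strand: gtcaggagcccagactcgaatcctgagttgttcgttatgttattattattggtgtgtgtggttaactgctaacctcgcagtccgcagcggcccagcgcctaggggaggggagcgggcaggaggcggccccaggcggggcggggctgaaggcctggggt
TALDO1, chr11:747214-747431, plus strand: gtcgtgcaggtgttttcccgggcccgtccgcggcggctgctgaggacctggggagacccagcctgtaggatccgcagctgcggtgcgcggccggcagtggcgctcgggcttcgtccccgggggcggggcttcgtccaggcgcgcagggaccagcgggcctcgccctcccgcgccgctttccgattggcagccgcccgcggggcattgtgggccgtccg
IDH1, chr2:208255144-208255321, minus strand: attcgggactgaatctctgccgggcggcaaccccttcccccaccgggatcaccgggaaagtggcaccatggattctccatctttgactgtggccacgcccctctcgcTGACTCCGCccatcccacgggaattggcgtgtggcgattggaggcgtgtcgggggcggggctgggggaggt
ME1, chr6:83431170-83431198, minus strand: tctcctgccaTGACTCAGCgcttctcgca
The PGD match reads the core on the opposite strand. It starts 201 bases before the RefSeq start, the IDH1 match 143 and the ME1 match 137 bases before. The ME1 match also holds TGACTCA, the letters of an AP-1 site, and a further ME1 match begins 11 bases after the start. These matches are descriptions of the letters only.

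Levels of the members were compared with each other per counted length, as RPKM. IDH1 had the highest median level, 251 RPKM at 6 h and 292 RPKM at 24 h over 18 libraries each. TALDO1 followed at 6 h with 174 RPKM, TKT had 160 RPKM and PGD 119 RPKM. At 24 h the 3 pentose phosphate genes lay close together, TKT at 138, TALDO1 at 135 and PGD at 132 RPKM. Of the RPKM summed over the 5 members, the median share of IDH1 was 35.9% at 6 h and 42.2% at 24 h, and that of TALDO1 25.4% and 19.1%.

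ME1 (NM_002395, hg19 chr6:83920110-84140938, minus strand), the cytosolic malic enzyme, was nearly undetected. It had 5 reads in all 36 libraries and 0 reads in 33 of them. The libraries with reads were replicate 1 of DHA at 6 h with 1 read, and replicate 1 of DHA and of DHA + PRO at 24 h with 2 reads each. A count of 0 allows up to 3 reads, which was 0.0709 to 0.644 CPM in these libraries. ME1 did not pass the filter on low counts, 4 of the 5 members were therefore tested, and no change of ME1 was detectable at this depth. Of its paralogs, the mitochondrial ME3 had 8 reads in all, whereas the mitochondrial ME2 had a median of 30.8 CPM at 6 h. The transketolase paralogs TKTL1 and TKTL2 had 6 and 2 reads.

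PGD (NM_001304451, hg19 chr1:10459049-10480568, plus strand) encodes 6-phosphogluconate dehydrogenase, which forms NADPH in the oxidative branch. At 24 h its levels in replicates 1, 2 and 3 were 289, 294 and 304 CPM in Ctrl, 280, 280 and 296 in DHA, 295, 318 and 324 in PRO, and 331, 351 and 343 in PCA. With DHA + PRO they were 291, 305 and 291 CPM, and with DHA + PCA 282, 303 and 330 CPM. PCA was the highest group, its 3 replicates lay above all 3 of Ctrl, and DHA was the lowest, overlapping Ctrl. At 6 h the levels of PGD ran from 237 to 305 CPM over the 6 groups, and Ctrl was highest at 284 ± 20.3 CPM (SD, n = 3).

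TKT (NM_001135055, hg19 chr3:53258723-53290130, minus strand) encodes transketolase, which exchanges carbon units between sugar phosphates in the non-oxidative branch and forms no NADPH itself. Its 24 h levels in replicates 1 to 3 were 360, 377 and 433 CPM in Ctrl, 363, 382 and 456 in DHA, 364, 423 and 417 in PRO, and 364, 404 and 428 in PCA. They were 413, 425 and 460 CPM with DHA + PRO and 381, 403 and 425 CPM with DHA + PCA. The groups overlapped, and replicate 1 was the lowest of the 3 in each of the 6 groups. At 6 h the levels of TKT ran from 419 to 519 CPM.

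TALDO1 (NM_006755, hg19 chr11:747432-765024, plus strand) encodes transaldolase, the other carbon-exchanging enzyme of that branch. At 24 h its replicates 1 to 3 were at 129, 149 and 156 CPM in Ctrl, 157, 172 and 195 in DHA, 167, 180 and 195 in DHA + PRO, and 158, 174 and 174 in DHA + PCA. They were at 155, 168 and 180 CPM in PRO and 148, 147 and 171 CPM in PCA. Each of the 3 groups with DHA lay above all Ctrl replicates, while PRO and PCA overlapped Ctrl. The margin was small: the highest Ctrl replicate was at 156 CPM, the lowest DHA replicate at 157 CPM and the lowest PRO replicate at 155 CPM. At 6 h Ctrl was at 199, 217 and 205 CPM and DHA at 256, 215 and 241 CPM, and these groups overlapped.

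IDH1 (NM_005896, hg19 chr2:209100951-209119867, minus strand) encodes the cytosolic isocitrate dehydrogenase, which forms NADPH from isocitrate. Its 6 h levels in replicates 1 to 3 were 756, 610 and 606 CPM in Ctrl, 639, 535 and 505 in DHA, 721, 605 and 545 in PRO, 720, 598 and 577 in PCA, 769, 487 and 484 in DHA + PRO, and 666, 554 and 497 in DHA + PCA. Replicate 1 was the highest in all 6 groups, at 639 to 769 CPM, against 484 to 610 CPM in replicates 2 and 3. At 24 h the levels were 758, 721 and 716 CPM in Ctrl, 720, 765 and 684 in DHA, 836, 683 and 773 in PRO, 668, 702 and 697 in PCA, 687, 653 and 667 in DHA + PRO, and 681, 754 and 681 in DHA + PCA. The number 1 replicates no longer stood apart at 24 h. IDH1 shares 94 exonic bases with the antisense gene IDH1-AS1, and the library kit does not mark strand, so reads from these bases cannot be assigned to either gene.

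**Figure D1:**
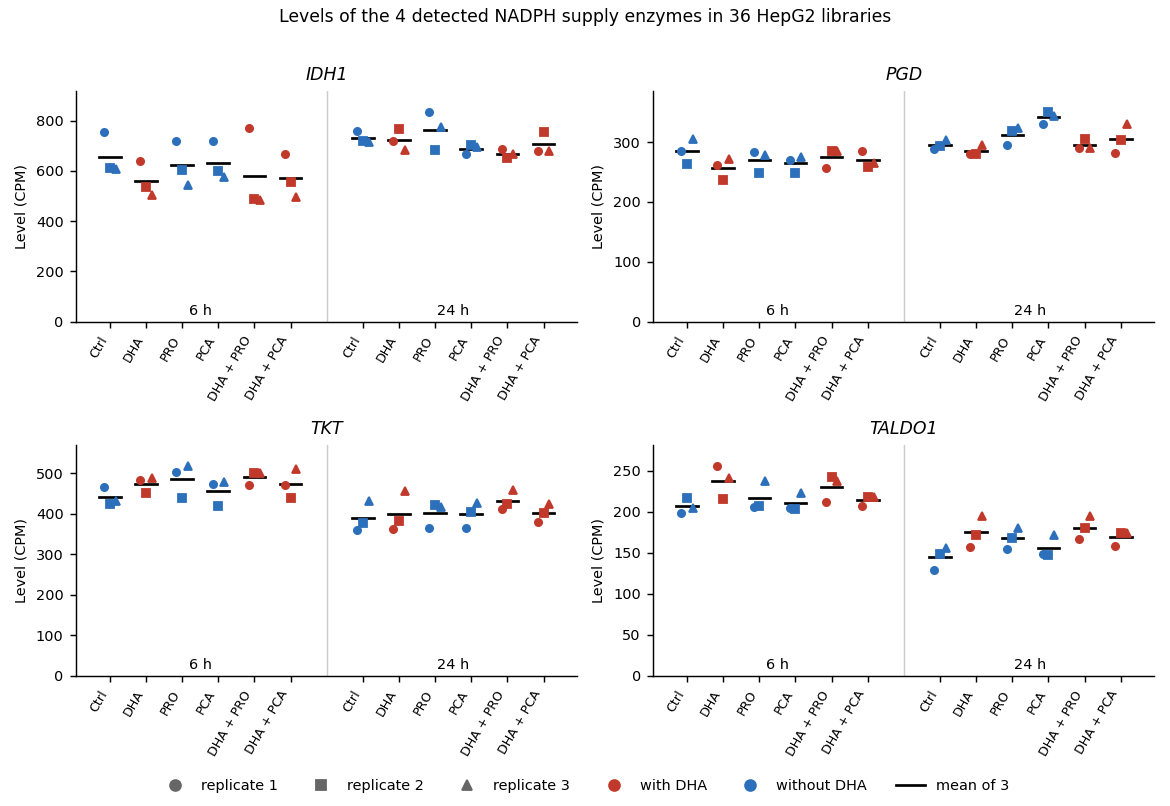
Level of each of the 4 detected members (CPM, axis from 0) in the 36 libraries, by treatment at 6 and 24 h, with marker shapes for the replicate number, red for groups with DHA, blue for groups without and a bar at the mean of 3. TALDO1 was at 199 to 256 CPM at 6 h and 129 to 195 CPM at 24 h, and IDH1 replicate 1 was the highest of its group in each 6 h group.

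In the order of the 6 group means at each time, most neighbours differed by less than the larger of their SDs. This held for 5 of 5 neighbouring pairs for every detected member at 6 h and for TALDO1 at 24 h, for 4 of 5 for TKT and IDH1 at 24 h, and for 3 of 5 for PGD at 24 h. The exceptions were PCA above PRO and Ctrl above DHA for PGD, DHA + PRO above DHA + PCA for TKT, and PCA above DHA + PRO for IDH1. The highest group mean was 1.11 to 1.25 times the lowest. Neighbours in a sorted order lie close by the sorting, so these counts do not compare groups further apart. For TALDO1 at 24 h, Ctrl was at 145 ± 14.1 CPM and DHA + PRO at 181 ± 14.0 CPM (SD, n = 3).

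The first question was whether any single treatment moved the members. Against Ctrl at 24 h, 0 of 4 members passed the threshold (edgeR quasi-likelihood test, adjusted p at most 0.05 over all genes and average log2 CPM above 0) in DHA, DHA + PRO, DHA + PCA, PRO or PCA, where 0.193%, 0.395%, 0.286%, 0.00% and 0.00% of 11893 tested genes did. At 6 h the count was also 0 of 4 in each, against 0.0168% of 11872 genes with DHA, DHA + PRO and DHA + PCA and 0.00% with PRO and PCA. In bulk RNA, fewer cells and less RNA per cell cannot be told apart. At an unadjusted p under 0.05, 1 of 4 members was found in each of DHA, DHA + PRO and DHA + PCA at 24 h (TALDO1 each time, where 708, 952 and 887 of the 11893 genes had such a p), 1 of 4 with PCA (PGD), 0 of 4 with PRO, and 0 of 4 in all 5 treatments at 6 h. At 6 h, 2.84%, 2.22%, 3.15%, 1.65% and 0.724% of genes had such a p with DHA, DHA + PRO, DHA + PCA, PRO and PCA. DESeq2 also called 0 of 4 members in each treatment at both times. With the replicate number added to the fit as a block, TALDO1 was called with DHA + PRO at 24 h (edgeR adjusted p = 0.0108, 1 of 4 members, 1.14% of genes).

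TALDO1 had the largest of these differences. The treatments were compared with the same Ctrl libraries, the group with the lowest TALDO1 mean at 24 h, so the comparisons are not independent. Its log2 fold change at 24 h was 0.32 (SE 0.0997, 95% interval 0.11 to 0.53, adjusted p = 0.309) with DHA + PRO, which is 1.25-fold. With DHA it was 0.27 (interval 0.07 to 0.48, adjusted p = 0.680) and with DHA + PCA 0.22 (interval 0.02 to 0.43, adjusted p = 0.639). PRO without DHA gave 0.20 (interval -0.00 to 0.41, adjusted p = 0.826), of a size close to that with DHA + PCA. PGD was 0.21 higher with PCA (SE 0.0774, interval 0.05 to 0.37, unadjusted p = 0.0112, adjusted p = 0.991 by edgeR), and 3.82% of all genes had an unadjusted p under 0.05 there, as 6.02% had with PRO at 24 h. TKT and IDH1 differed from Ctrl by -0.13 to 0.15 in the 5 treatments at 24 h.

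**Figure D2:**
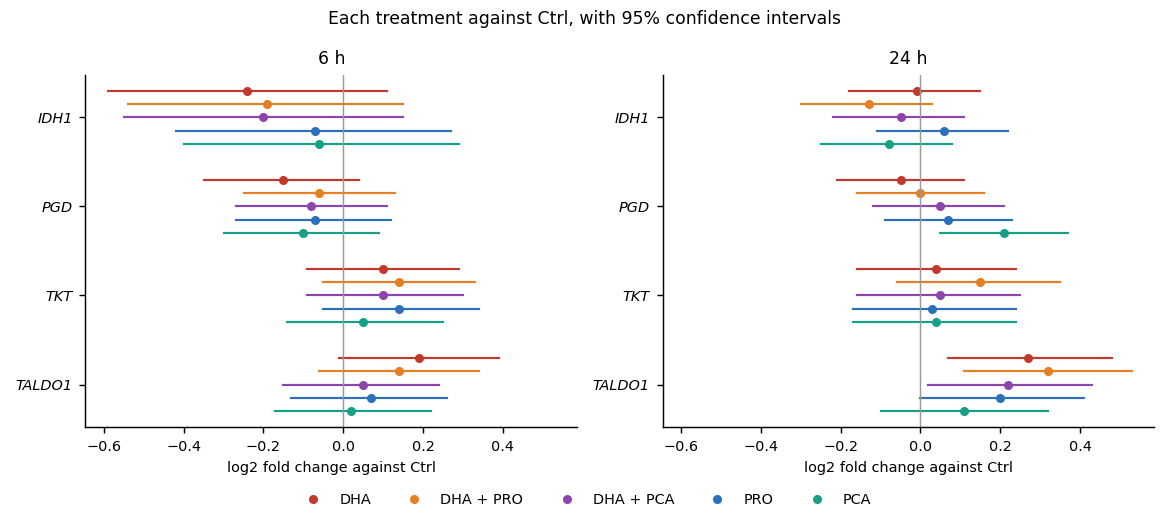
Log2 fold change against Ctrl (points) with its 95% confidence interval (lines) for IDH1, PGD, TKT and TALDO1 in each of 5 treatments, at 6 h on the left and 24 h on the right. At 24 h the intervals of TALDO1 with DHA (0.07 to 0.48), DHA + PRO (0.11 to 0.53) and DHA + PCA (0.02 to 0.43), and of PGD with PCA (0.05 to 0.37), lay above 0. None of these passed the adjusted threshold in the fit shown, which had no replicate block.

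The second question was whether PRO or PCA altered the levels found with DHA, and whether they altered the DHA effect. DHA + PRO and DHA + PCA were each compared with DHA, and 0 of 4 members were called at either time, as were 0.00% of all genes in each of these 4 comparisons by edgeR. At an unadjusted p under 0.05 the members' count was again 0 of 4 in each, and DESeq2 called 0 of 4. Few genes had such a p by edgeR: 1.42% with DHA + PRO and 1.27% with DHA + PCA at 6 h, and 4.43% and 2.32% at 24 h. At 24 h the members' log2 differences from DHA ran from -0.12 for IDH1 with DHA + PRO (interval -0.28 to 0.05) to 0.11 for TKT with DHA + PRO (interval -0.09 to 0.31). TALDO1 differed by 0.05 with DHA + PRO (interval -0.16 to 0.25) and by -0.05 with DHA + PCA (interval -0.25 to 0.16). The interaction terms of DHA with PRO and with PCA test a change of the DHA effect. They were called by edgeR for 0 of 4 members at either time, as for 0.00% of all genes. Both were -0.16 for TALDO1 at 24 h (intervals -0.45 to 0.13 and -0.45 to 0.14). At 24 h the terms ran from -0.17 (IDH1 with PRO, interval -0.41 to 0.06) to 0.08 (TKT with PRO, interval -0.21 to 0.36). At 6 h they ran from -0.17 (TALDO1 with PCA, interval -0.44 to 0.11) to 0.18 (PGD with PCA, interval -0.09 to 0.45). PRO and PCA are different acids given at different doses, and were not compared with each other.

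The third question was the effect of DHA itself, averaged over the 3 pairs that differed in DHA (DHA against Ctrl, DHA + PRO against PRO and DHA + PCA against PCA). At 24 h, 0 of 4 members were called, against 1.23% of 11893 genes, and at 6 h 0 of 4, against 0.202% of 11872 genes. At an unadjusted p under 0.05 these counts were 2 of 4 members at 24 h (TALDO1 and PGD), against 9.88% of all genes, and 0 of 4 at 6 h, against 2.88%, and DESeq2 called 0 of 4 at both times. The result for TALDO1 depended on the fit. With the replicate number as a block it was called at 24 h (edgeR adjusted p = 0.0126, 1 of 4 members, 3.09% of genes).

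At 24 h TALDO1 was at 157 to 195 CPM (median 174) in the 9 libraries with DHA and at 129 to 180 CPM (median 155) in the 9 without. These ranges overlapped. The log2 fold change was 0.17 (SE 0.0577, 95% interval 0.05 to 0.29, edgeR adjusted p = 0.227), or 1.12-fold. An exact 2-sided permutation of the DHA label within each pair gave p = 0.00950 for this single value, unadjusted for the 8 such tests (4 members at 2 times), where 8000 arrangements allow 0.00025 at the least. Within replicate numbers 1, 2 and 3 the difference in log2 CPM was 0.16, 0.18 and 0.15, and among libraries with an earlier and a later run of library numbers in their titles it was 0.17 and 0.15. At 24 h the later run was replicate number 3 of every group, so this split is not a separate check.

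PGD lay on the other side of 0. It was at 280 to 330 CPM (median 291) with DHA and at 289 to 351 CPM (median 318) without, and again the ranges overlapped. The log2 fold change was -0.10 (SE 0.0447, interval -0.19 to -0.00, edgeR adjusted p = 0.470), and the exact permutation p was 0.00625 before any adjustment. Within replicate numbers the differences were -0.10, -0.12 and -0.08. PCA without DHA was the group with the most PGD, and DHA against Ctrl alone gave -0.05 (interval -0.21 to 0.11).

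TKT and IDH1 were nearer to 0. TKT had a log2 fold change of 0.05 (interval -0.06 to 0.17, adjusted p = 0.816, exact permutation p = 0.328), and IDH1 of -0.06 (interval -0.15 to 0.04, adjusted p = 0.741, exact permutation p = 0.216). At 6 h the 4 values were 0.10 for TALDO1, 0.05 for TKT, -0.04 for PGD and -0.17 for IDH1, each with an adjusted p of 1.00. IDH1 had the widest interval at 6 h, -0.37 to 0.03, and its replicate numbers gave -0.09, -0.20 and -0.22. With the replicate number as a block, the interval of IDH1 was -0.27 to -0.08, and it was not called (edgeR adjusted p = 0.106). The change of the DHA effect between 6 and 24 h was called by edgeR and by DESeq2 for 0 of 4 members, as by edgeR for 0.00% of 12046 genes. At an unadjusted edgeR p under 0.05 the count was also 0 of 4, against 3.05% of genes. The change ran from -0.07 (PGD, interval -0.20 to 0.07) to 0.10 (IDH1, interval -0.12 to 0.32).

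Genes of 2 other lists moved in opposite directions with DHA. These lists were chosen with earlier results of these data known, so their counts are descriptions and not independent findings. Of all tested genes, 1.23% were called in either direction at 24 h. Of 11 fatty acid synthesis genes, 10 were tested, and 8 of the 10 fell with DHA at 24 h and 0 rose, with a median log2 fold change of -0.53 over the tested genes, against 0.0070 over all genes. ACSS2, which makes acetyl-CoA from acetate, fell by 0.76, the desaturase SCD by 0.70, the fatty acid synthase FASN by 0.66 and the desaturase FADS2 by 0.62 on the log2 scale. ELOVL6, ACLY, FADS1 and ACACA fell by 0.55, 0.50, 0.41 and 0.38. The upper limit of the ACACA interval, -0.28, lay below the lower limit of each of the 4 members, the lowest of which was -0.19 for PGD. ACACB (0.08) and SLC25A1 (-0.14), named after their values were seen, did not pass the test.

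Of 19 NRF2 targets outside NADPH supply, 9 rose with DHA at 24 h and 0 fell, with a median of 0.24. Without the 6 libraries of replicate number 2, 2 of 19 were called. With the replicate number as a block, 15 of 19 were called, against 3.09% of all genes. This list too was chosen with earlier results known. The aldo-keto reductases AKR1B10 and AKR1C1, which themselves use NADPH, rose by 0.87 and 0.68. OSGIN1, a growth inhibitor induced by oxidative stress, rose by 0.70 and the cystine carrier SLC7A11 by 0.57. NQO1, HMOX1, GCLC, TXNRD1 and SRXN1 rose by 0.38, 0.32, 0.32, 0.32 and 0.30. The 10 targets not called ran from 0.07 (SLC48A1) to 0.24 (GCLM), both named after their values were seen. TALDO1 at 0.17 was the member nearest to the median of this group and lay within the range of the uncalled targets. Its interval reached 0.29. At 6 h the NRF2 targets OSGIN1 (0.63), AKR1C1 (0.34) and AKR1B10 (0.34) were called, 3 of 19, and 0 of 10 fatty acid synthesis genes, of which 7 had an unadjusted p under 0.05 by edgeR. There 0.202% of all genes were called. With the replicate number as a block, 7 of 19 and 5 of 10 were called, against 0.539% of all genes.

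None of the other genes of the pathway passed the test either. Of 12 other pentose phosphate genes, 10 were tested and 0 were called with DHA at 24 h (median log2 fold change 0.072). Of 13 genes listed as other NADPH and NADP+ enzymes, 12 were tested and 0 called (median 0.10). At an unadjusted p under 0.05 these counts were 3 of 10 and 5 of 12, against 9.88% of all genes, and DESeq2 called 0 in both lists. MTHFD2, a mitochondrial folate enzyme named after its values were seen, was called without replicate 2 of DHA, at 0.36. IDH2, the mitochondrial counterpart of IDH1, had -0.02 (interval -0.14 to 0.11), and ME2 had 0.21 (interval 0.03 to 0.39, adjusted p = 0.366).

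**Figure D3:**
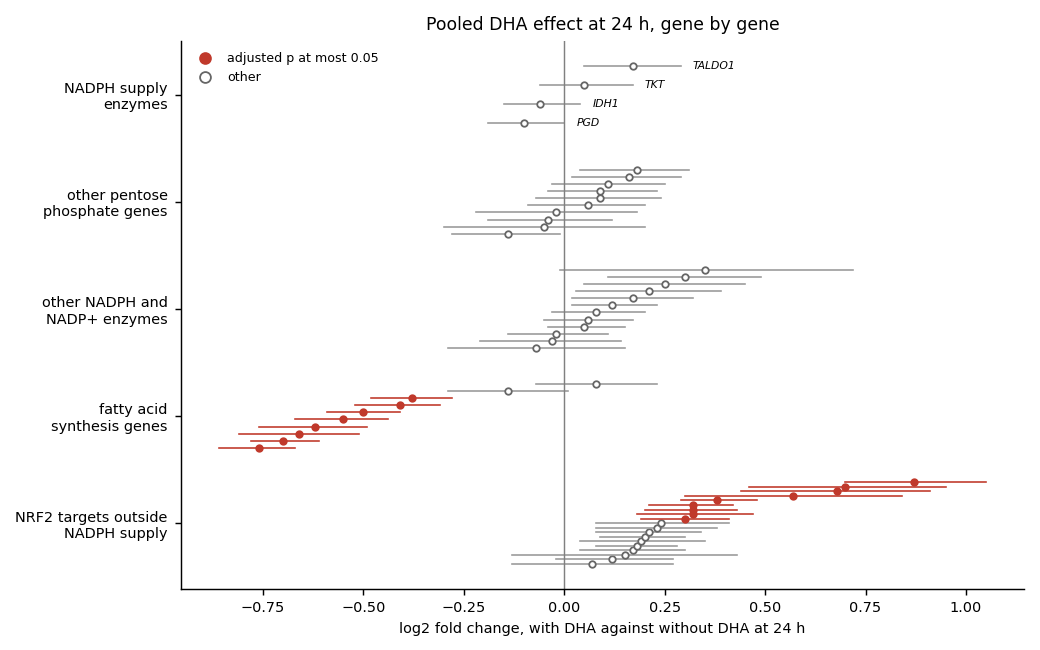
Log2 fold change of every tested gene of 5 lists with DHA against without DHA at 24 h (points) with 95% confidence intervals (lines), filled red where the adjusted p was at most 0.05. The 4 members lay between -0.10 and 0.17, none of them filled, while 8 of 10 fatty acid synthesis genes were called lower and 9 of 19 NRF2 targets were called higher. The fit shown had no replicate block.

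The last question was how the members differed between 24 and 6 h in the groups without DHA (Ctrl, PRO and PCA, 9 libraries at each time). Here 4 of 4 tested members were called, in a comparison that called 48.4% of 12046 genes, so that a call alone set the members little apart from other genes. Without replicate number 2, 2 of 4 members were called, and the share of all genes called in that setting is not reported here. Of the members, the non-oxidative enzymes fell and the dehydrogenases rose.

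TALDO1 fell by 0.44 on the log2 scale (SE 0.0558, 95% interval -0.55 to -0.33, adjusted p = 5.99e-08), from 199 to 238 CPM at 6 h to 129 to 180 CPM at 24 h. These ranges did not overlap, and the fold was 0.737. Within replicate numbers 1, 2 and 3 the difference was -0.50, -0.44 and -0.39. TKT fell by 0.22 (SE 0.0548, interval -0.33 to -0.11, adjusted p = 0.00134), from 419 to 519 CPM to 360 to 433 CPM, with overlap. Its replicate numbers gave -0.41, -0.09 and -0.16, and without replicate number 1 the value was -0.13 and not called (adjusted p = 0.0874).

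PGD rose by 0.21 (SE 0.0465, interval 0.12 to 0.31, adjusted p = 0.000306), from 249 to 305 CPM at 6 h to 289 to 351 CPM at 24 h, and its replicate numbers gave 0.13, 0.33 and 0.18. Without replicate number 2 it was 0.15 and not called (adjusted p = 0.0799). IDH1 rose by 0.19 (SE 0.0780, interval 0.03 to 0.35, adjusted p = 0.0412), from 545 to 756 CPM to 668 to 836 CPM. This call was the weakest of the 4. Its replicate numbers gave 0.04, 0.22 and 0.34. Earlier and later library numbers gave 0.13 and 0.34, the later ones being replicate number 3 of each group compared. The call was lost without any 1 of 13 of the 18 libraries compared, at 0.16 to 0.20 (edgeR adjusted p = 0.0514 to 0.0973). These were replicates 2 and 3 of Ctrl, PRO and PCA at 6 h, all 3 of Ctrl at 24 h, replicates 1 and 3 of PRO at 24 h, and replicates 2 and 3 of PCA at 24 h.

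The 9 libraries without DHA at 24 h entered both this comparison and the DHA effect at 24 h, with opposite sign, so the values of the 2 comparisons are not independent. Of 10 tested fatty acid synthesis genes, 9 rose and 0 fell between 6 and 24 h (median 0.68), led by ACSS2 at 1.21 and FADS2 at 1.17. Of 19 NRF2 targets, 15 fell and 1 rose (median -0.60). AKR1C1 fell by 2.01, AKR1B10 by 1.28 and TXNRD1 by 0.99, while HMOX1, the heme-degrading enzyme, rose by 0.89. The median over all genes was -0.0073.

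The other pentose phosphate genes moved in both directions. Of 10 tested, 5 rose and 2 fell. Those that rose included RBKS (1.12), H6PD (0.66), PGLS (0.58) and DERA (0.22), and PRPS1 (-0.33) and RPE (-0.29) fell. PGLS acts in the oxidative branch like PGD, and RPE in the non-oxidative branch like TKT and TALDO1. RPIA, also of the non-oxidative branch, was not called (-0.01, interval -0.15 to 0.13). Of the 12 other NADPH and NADP+ enzymes, ALDH1L2 (0.97), IDH2 (0.77) and ALDH1L1 (0.49) rose and NADK2 (-0.36), NADK (-0.16) and MTHFD1 (-0.13) fell. All of these except IDH2 were named after their values were seen. IDH2 went from a median of 80.7 CPM at 6 h to 139 CPM at 24 h, a larger log2 change than the 0.19 of IDH1. Whether the 2 changes differ was not tested.

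**Figure D4:**
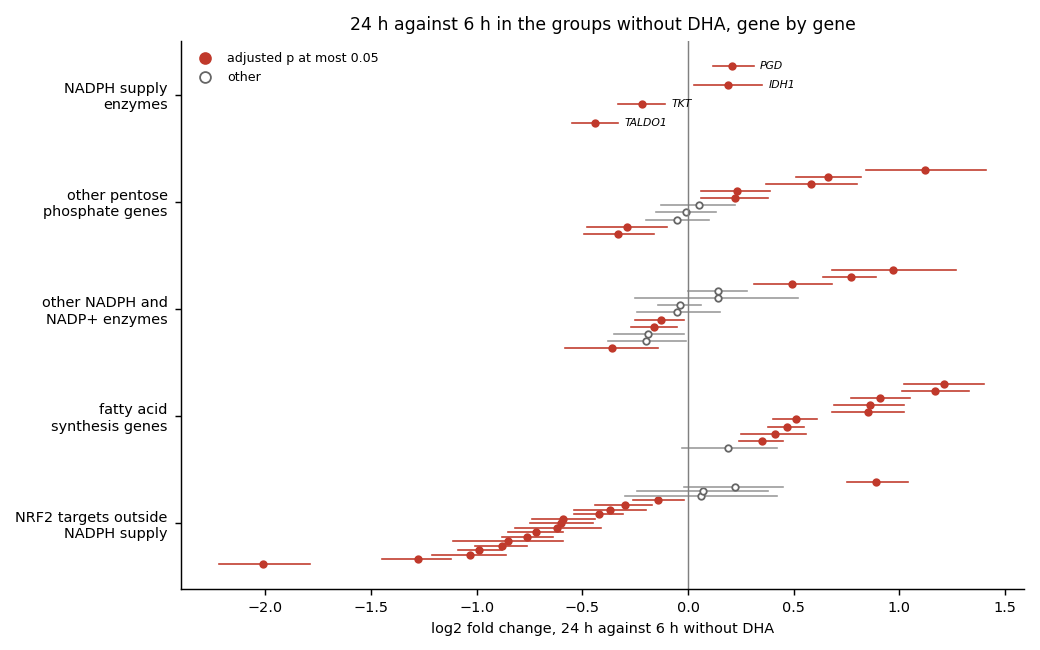
Log2 fold change of every tested gene of 5 lists at 24 h against 6 h in the groups without DHA (points) with 95% confidence intervals (lines), filled red where the adjusted p was at most 0.05. TALDO1 (-0.44) and TKT (-0.22) fell and PGD (0.21) and IDH1 (0.19) rose, while 9 of 10 fatty acid synthesis genes rose and 15 of 19 NRF2 targets fell.

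Among themselves, the members did not vary as 1 group. Over 18 libraries of a time, TKT and TALDO1 had a Pearson's r of 0.53 at 6 h and 0.77 at 24 h on log2 CPM. TALDO1 and IDH1 had -0.59 and -0.29, and PGD and TALDO1 0.059 and -0.0065. These libraries share treatments, replicate numbers and depth, so the values are descriptions. Among the genes most like each member at 24 h, of 10622 genes compared, were ST6GALNAC6 (0.83), HYAL1 (0.80) and PSTPIP1 (0.79) for PGD, and FBLN1 (0.87) for TKT. For TALDO1 they were CPLX2 (0.86), MCM2 (0.83) and IMP4 (0.83), and for IDH1 LTN1 (0.89), SMAD2 (0.88) and PAPOLA (0.88). At 6 h these pairs had an r of 0.40, 0.48 and 0.22 for PGD, 0.75 for TKT, 0.57, 0.38 and 0.49 for TALDO1, and 0.49, 0.89 and 0.67 for IDH1.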

How the data were processed

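The authors mapped reads to hg19 (GRCh37) with STAR and deposited raw counts per gene, with a counted length in bases for each (a table value of another kind, deposited beside the counts and used for RPKM). TruSeq libraries do not mark strand. Groups came from the sample titles and treatments. Genes passed filterByExpr, TMM factors were computed, and contrasts were tested with the quasi-likelihood F test of edgeR 4.0.16 in R 4.3.3, with 18 libraries per time or, across times, 36 libraries. Calls needed an average log2 CPM above 0 and an adjusted p (Benjamini-Hochberg, all tested genes) no higher than 0.05. SEs came from the F statistic. Log2 CPM for permutations, batches and correlations used a pseudocount of 0.5 CPM. The scripts were tested on simulated data. P-values set the differences between groups against the spread between these samples, which without a block includes any differences between replicate numbers. No 2 libraries matched within sampling noise (lowest chi-square per degree of freedom 1.89 over 630 pairs). The members and lists were chosen with earlier results of these data known. Named were the 5 members, paralogs, genes of other lists called for DHA at 24 h, and the 3 genes of average log2 CPM above 2 most correlated with each member, with exceptions marked in the text. Some genes that this rule or the lists hold are not reported here. Alternatives were DESeq2 1.42.0 (size factors, Wald test), upper quartile scaling, no filter, blocks, other sample sets and thinning. Shares of all genes called are given for the replicate blocks and not for the other alternatives. Figures used matplotlib 3.10.9 in Python 3.11.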

Additional observations from a re-analysis of the deposited data

How the results depend on the processing

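With upper quartile scaling, size factors of DESeq2 or its Wald test, no filter, a library series block, a fit of only the groups compared, the deepest library thinned or any single library left out, the counts of members called stayed within 1.5 times their values above. The pooled DHA fold changes at 24 h kept their direction in all 28 alternatives, from 0.14 to 0.19 for TALDO1 and -0.12 to -0.08 for PGD. Leaving out libraries or a replicate number gave 2 to 4 members called between 24 and 6 h, 2 to 12 called NRF2 targets and 0 to 1 other NADPH and NADP+ enzymes with DHA at 24 h. Without a filter, 1 of those enzymes (MTHFD2) was called. Thinning the deepest library left IDH1 uncalled between 24 and 6 h (0.18, adjusted p = 0.0556), as did leaving out replicate number 2 (0.18) or 3 (0.12). The causes were not tested. For the pooled DHA effect, the fit of only the groups compared is the fit given above. With the replicate number as a block, TALDO1 was called by edgeR for the pooled DHA effect at 24 h (0.17, adjusted p = 0.0126, 1 of 4 members, 3.09% of genes) and for DHA + PRO against Ctrl at 24 h (0.32, adjusted p = 0.0108, 1 of 4 members, 1.14% of genes). For the pooled DHA effect at 24 h it also called 15 NRF2 targets and 1 gene listed among the other NADPH and NADP+ enzymes (MTHFD2). That block moved the genes called for the pooled DHA effect at 24 h from 146 to 367, and changed no other member's call. At 6 h it called 5 of 10 fatty acid synthesis genes lower and 7 of 19 NRF2 targets higher, against 0 and 3 without it. Same-numbered libraries deviated together in part: correlations of their deviations were over 0.1 in 38 of 45 pairs at 6 h and 34 of 45 at 24 h, and 16 of 18 and 17 of 18 libraries correlated best with their own number. A block within each time, added after seeing the data, called 4 of 4 members between 24 and 6 h, and 56.3% of 12046 genes. On the plus strand alone, the antioxidant core was found in 2 of 5 members. At these depths the intervals of the pooled DHA effect on the 4 tested members at 24 h spanned -0.19 to 0.29, and changes of ME1 under its floor cannot be seen.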
